A study of Mus musculus with 52 samples.

Results

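The 10 genes described here belong to the inflammatory cytokine and NF-κB feedback circuit of mouse bone marrow stromal cultures: the cytokines Il1a, Il1b, Il6 and Tnf, the interleukin-1 receptor antagonist Il1rn, the NF-κB inhibitors Nfkbia, Tnfaip3 and Tnip3, the inflammasome sensor Nlrp3 and the nitric oxide synthase Nos2. They were chosen by name as 10 of the 22180 genes with a probe set annotated to a single symbol, and each had 1 such probe set. A filter on low values passed 8 of the 10 members and 14911 genes in all. Il1b and Il6 did not pass and are not among the 8 members tested throughout. Their differences were tested only in an alternative fit without that filter.

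RNA came from primary bone marrow cells of female C57BL/6J mice aged 8 weeks and was read on Affymetrix Mouse Gene 2.0 ST arrays, 52 in number. Each of 13 groups held 4 arrays, 1 for each of the numbers 12, 15, 19 and 20 in the array titles. The labels state that each pool combined 2 to 4 animals. The numbers are read here as those pools, which the labels do not say in words. Cultures of 6 kinds were harvested 1 or 4 days after the change to osteoinductive medium on day 7 of plating. They had received Rosi (rosiglitazone, 100 nM, an agonist of the nuclear receptor PPARγ), LG268 (LG100268, 100 nM, which activates RXR, with which PPARγ pairs), TBT (tributyltin, 80 nM, an organotin that binds both receptors), TPhP (triphenyl phosphate, a flame retardant), MEHP (the phthalate metabolite mono-2-ethylhexyl phthalate) or the vehicle DMSO at 0.1%. All of these cultures also received the medium's dexamethasone (10 nM), a glucocorticoid, with ascorbate, β-glycerol phosphate and insulin. The naive group was harvested before the medium change and had received neither this medium nor a treatment. The labels give no dose for TPhP or MEHP, so the chemicals are not compared at matched doses.

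NF-κB is held in the cytoplasm by inhibitor proteins of the IκB family until receptors for interleukin-1, TNF or microbial products trigger their destruction. Freed NF-κB then induces cytokine genes and, with them, its own inhibitors, so that a burst of signalling turns on its own brake. In marrow the cytokines come largely from macrophages and other myeloid cells, and they act on stromal, bone-forming and bone-resorbing cells. Glucocorticoids and PPARγ ligands are both known to restrain NF-κB target genes in macrophages.

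Nfkbia, Tnfaip3 and Tnip3 encode the brake itself, and their promoters are shown because these genes are induced by the factor they restrain. The first, Nfkbia, encodes IκBα, the inhibitor that binds NF-κB. Tnfaip3 encodes A20, a ubiquitin-editing enzyme that shuts down signalling upstream, and Tnip3 encodes an A20-binding protein. The sequences run from 250 bases before to 50 bases after the annotated start, from RefSeq on GRCm38.p6, 5′ to 3′ on the gene's strand, with matches to the NF-κB consensus motif in capitals. They lie at chr12:55492598-55492897 (minus strand) for Nfkbia, chr10:19015361-19015660 (minus strand) for Tnfaip3 and chr6:65590148-65590447 (plus strand) for Tnip3.
Nfkbia: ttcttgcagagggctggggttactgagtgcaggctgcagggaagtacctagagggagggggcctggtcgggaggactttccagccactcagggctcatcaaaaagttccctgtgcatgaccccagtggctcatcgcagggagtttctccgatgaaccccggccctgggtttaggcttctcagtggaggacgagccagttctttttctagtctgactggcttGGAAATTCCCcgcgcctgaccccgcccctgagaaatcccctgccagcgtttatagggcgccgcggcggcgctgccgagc
Tnfaip3: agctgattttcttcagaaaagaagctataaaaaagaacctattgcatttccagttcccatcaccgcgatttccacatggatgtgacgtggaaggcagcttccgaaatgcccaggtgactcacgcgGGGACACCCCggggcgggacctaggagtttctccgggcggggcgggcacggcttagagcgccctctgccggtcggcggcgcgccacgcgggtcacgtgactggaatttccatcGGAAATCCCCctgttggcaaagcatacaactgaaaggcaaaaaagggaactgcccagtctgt
Tnip3: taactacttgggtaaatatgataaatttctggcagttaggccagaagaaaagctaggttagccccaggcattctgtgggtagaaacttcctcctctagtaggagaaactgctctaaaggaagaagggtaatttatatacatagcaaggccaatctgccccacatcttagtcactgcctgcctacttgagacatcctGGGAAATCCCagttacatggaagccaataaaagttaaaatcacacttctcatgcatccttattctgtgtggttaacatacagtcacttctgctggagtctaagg
Both strands were searched, for this motif alone. Counted from the start, the Nfkbia match spans positions -29 to -20, the Tnfaip3 matches -125 to -116 and -12 to -3, and the Tnip3 match, which reads as the motif on both strands, -54 to -45. Of 32851 promoter windows of the same length, 1480 (4.51%) held the motif. A total of 9 members had a window, 13 windows in all, and 5 of these members held a match. By gene, 1388 of 27025 (5.14%) held the motif. Besides the genes shown, Il6 and Nlrp3 held a match. Tnfaip3 and Nlrp3 each had another window without one. The windows of Il1a, Il1b, Il1rn and Tnf held none of these letters, which says nothing of binding elsewhere.

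Medians of the arrays lay between 3.97 and 4.15 (deposited log2 values), and precision is set by having 4 arrays a group. The label of stromal cells was set against marker genes. All 10 stromal markers were above the table's median of 4.05 in 52 of 52 arrays (Cxcl12 averaged 11.91 and Col1a1 11.64), and so were all 14 macrophage markers (Lyz2 averaged 12.23 and C1qb 11.80). The cultures therefore held RNA of both kinds. In such bulk samples, fewer cells of a type and less RNA per cell cannot be told apart. The words rose and fell are kept for genes with a limma adjusted p, over all 14911 genes, under 0.05. Differences are log2 differences ± SE, and values by array are log2 levels in the order of pools 12, 15, 19 and 20. Levels of different probe sets are not set against each other.

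The first comparison asks what the change of medium did with vehicle alone, and it cannot separate medium, DMSO and time in culture. Tnip3 fell at day 1 and day 4, Tnf and Nlrp3 fell at day 4, and Il1rn and Nfkbia rose at day 4. At day 1, 1 of the 8 tested members fell and 0 rose, where 4.86% of all tested genes fell and 12.9% rose. At day 4, 3 fell and 2 rose, where 11.5% of all genes fell and 17.4% rose. The median difference at day 4 was -0.17 over the 8 members and 0.06 over all genes tested.

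Tnip3 read 5.48, 5.33, 5.85 and 5.55 in vehicle cultures at day 1, 6.50, 6.83, 5.40 and 5.61 at day 4, and 6.79, 7.37, 8.37 and 8.19 in naive cells. All 4 vehicle arrays of day 1 lay below all 4 naive arrays, while at day 4 the array of pool 15 reached into the naive range. The difference from naive cells was -2.13 ± 0.41 at day 1 (4.37-fold lower, limma adjusted p = 0.000238) and -1.60 ± 0.41 at day 4 (adjusted p = 0.00237). The day 4 call was lost without pool 19 or pool 20 (highest adjusted p = 0.101).

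Tnf, the founding member of its cytokine family, read 6.71, 6.84, 6.12 and 6.30 in vehicle cultures at day 4 and 7.79, 7.29, 7.57 and 7.79 in naive cells. The groups did not overlap. The difference was -1.12 ± 0.26 (2.17-fold lower, adjusted p = 0.00105), in 4 of 4 pools, and the call held in all 10 alternatives. Of these, averaging probe sets could not change the values of Tnf, which had 1 probe set. At day 1 it averaged 6.94 ± 0.14 in vehicle cultures and 7.61 ± 0.24 in naive cells (SD, n = 4 each), also without overlap, but that difference did not pass the test. It passed without pool 15 (adjusted p = 0.0352) and in a fit of only the arrays compared (adjusted p = 0.00991).

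Il1b, the cytokine that the inflammasome matures, was also highest in naive cells. It read 3.24, 2.85, 2.67 and 2.94 in vehicle cultures at day 1 and 3.95, 4.30, 4.99 and 5.38 in naive cells. Every array above the table's median of 4.05 was naive, 3 of 52 in all, and the groups did not overlap. In a fit without the filter the difference was -1.73 at day 1 (adjusted p = 3.67e-06) and -1.53 at day 4 (adjusted p = 6.7e-06), with the vehicle levels near background and the size therefore uncertain.

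Nlrp3 encodes the sensor that starts inflammasome assembly. It read 5.97, 6.13, 6.14 and 6.23 in vehicle cultures at day 4 and 6.57, 6.54, 6.58 and 6.57 in naive cells, whose arrays nearly coincided. The groups did not overlap, and the difference of -0.45 ± 0.17 passed the test (adjusted p = 0.0461). It was lost in 4 of 10 alternatives, among them the omission of pools 15, 19 or 20 (highest adjusted p = 0.151).

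Il1rn, which blocks the interleukin-1 receptor without activating it, read 9.97, 10.54, 10.32 and 10.24 in vehicle cultures at day 4 and 10.10, 9.93, 9.53 and 9.61 in naive cells. The groups overlapped, since pool 12 was lower with vehicle while the other 3 pools were higher. The rise was 0.47 ± 0.17 (adjusted p = 0.0298). At day 1 it was 0.44 ± 0.17 with adjusted p = 0.0653, and 0.00869 with the pool as replicate block, a fit in which 16% of all genes rose.

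Nfkbia read 9.57, 9.68, 9.38 and 9.20 in vehicle cultures at day 4 and 9.23, 8.72, 8.97 and 8.997 in naive cells, and it was higher in 4 of 4 pools. Only the vehicle array of pool 20 lay within the naive range. The rise was 0.48 ± 0.17 (adjusted p = 0.0271). Between vehicle days, day 4 minus day 1 was 0.36 ± 0.17 for Nfkbia, with adjusted p = 0.155 and 0.0495 with the pool as block. The day 4 rises of Il1rn and Nfkbia were each lost without pool 15, 19 or 20 and in a fit of only the arrays compared (highest adjusted p = 0.198 and 0.099). In that comparison of vehicle days 0 of 8 members passed limma's test and 1 did with the block, where 12.9% of all genes passed and 17.5% with the block. At an unadjusted p under 0.05, 2 members passed, with no share of all genes given at that threshold.

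**Figure D1:**
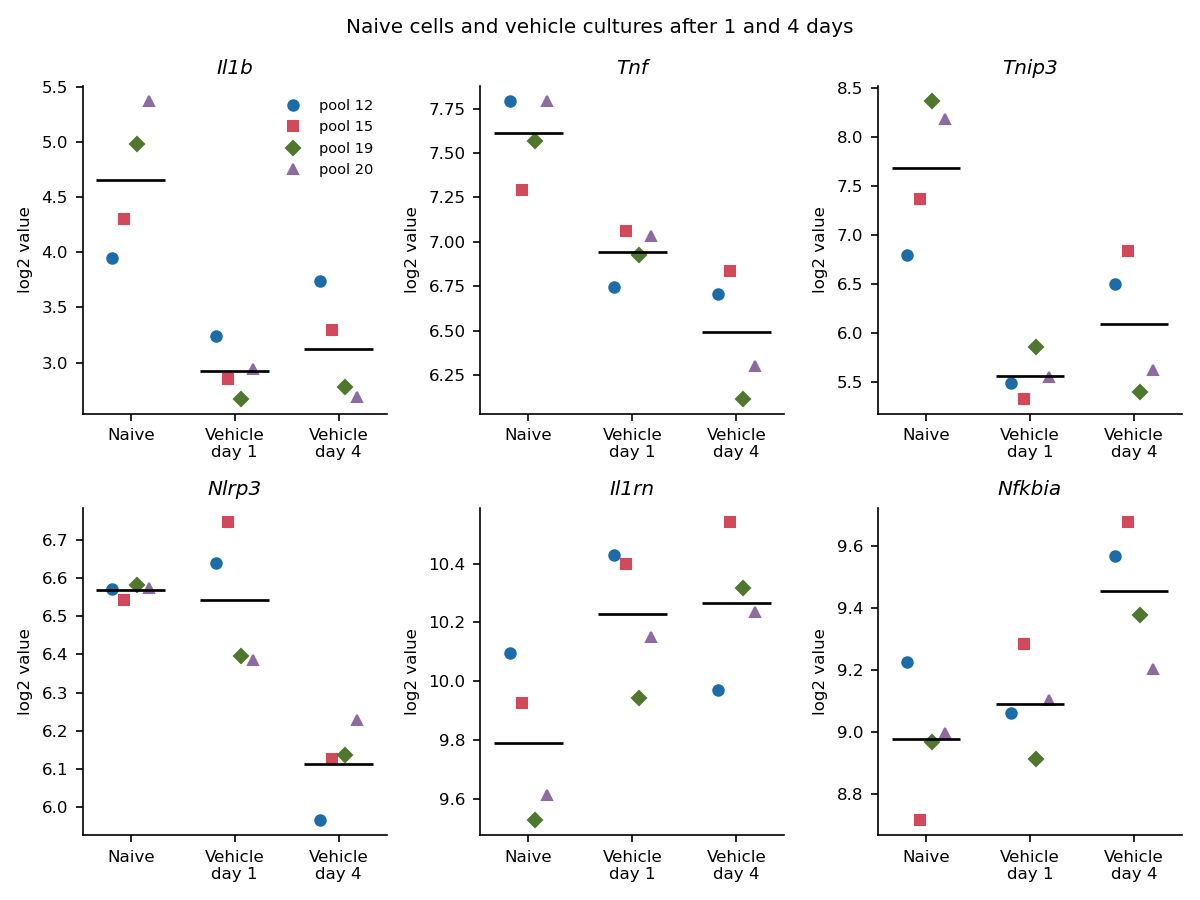
Log2 values of 6 members in naive cells and in vehicle cultures after 1 and 4 days. Points are single arrays by pool and black lines are group means of 4 arrays. Il1b and Tnip3 sit highest in the naive group (means 4.66 and 7.68), while the naive means of Il1rn and Nfkbia (9.79 and 8.98) are the lowest of the 3 groups.

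Other genes of the pathway moved in both directions in vehicle cultures. Of 11 other genes listed here as inhibitors of the pathway, 3 fell and 1 rose at day 4 (median difference -0.04). Those that fell were Zfp36 (-0.88 ± 0.14), which destabilises Tnf mRNA, Nfkbiz (-0.80 ± 0.13), a nuclear IκB protein, and Otulin (-0.51 ± 0.10), which removes linear ubiquitin chains. Of 4 tested NF-κB subunits, 2 fell at day 4, Rela (-0.27 ± 0.06) and Rel (-0.48 ± 0.17). Of 10 receptors, 6 rose and 2 fell, and Il1r1, the signalling receptor for interleukin-1, rose by 1.16 ± 0.25. Of 11 signalling adaptors and kinases 4 rose and 1 fell, of 8 other inflammasome genes 1 rose, and of 14 other NF-κB-responsive genes 2 rose. Glucocorticoid receptor targets rose in number, 9 of 15 at day 1 and 13 of 15 at day 4, where 12.9% and 17.4% of all genes rose.

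Markers of other cells moved along with these members. Of 9 monocyte and dendritic cell markers, 4 fell at day 1 and 6 at day 4, among them Ccr2 (-2.18 ± 0.40) and Itgax (-2.85 ± 0.73) at day 4. Their summed level, on the log2 scale, was 10.40 to 11.25 in vehicle cultures at day 4 and 11.62 to 11.95 in naive cells. Of the 14 macrophage markers, 2 rose and 1 fell at day 4. All 6 tested B cell markers fell at day 4 (median -1.75) and 2 of 6 at day 1, and their summed log2 level was 7.10 to 7.54 in vehicle cultures at day 4 and 8.89 to 9.74 in naive cells. Of 7 osteoclast markers 6 rose at day 4, at 11.07 to 11.70 in vehicle cultures and 9.87 to 10.39 in naive cells. Of 7 osteoblast markers 4 rose, at 12.19 to 13.20 in vehicle cultures and 10.36 to 11.81 in naive cells. The part of these shifts in the changes of the members was not tested.

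At day 1 none of the 5 chemicals moved a member past the test. The count was 0 of 8 against vehicle for each of Rosi, LG268, TBT, TPhP and MEHP, where 7.25%, 0.241%, 0.543%, 0.215% and 0.523% of all genes passed limma's test in that order. At an unadjusted p under 0.05 the counts were 1, 2, 2, 1 and 1 members. The shares above are for adjusted p and cannot be set against these counts. With the pool as block, Tnfaip3 passed for LG268, and in fits of only the arrays compared Tnf passed for Rosi, LG268 and TBT.

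Tnfaip3 read 7.26, 7.29, 6.88 and 7.01 in LG268 cultures at day 1 and 6.75, 6.71, 6.47 and 6.42 in vehicle cultures. The groups did not overlap. The difference was 0.52 ± 0.18, with limma's adjusted p = 0.735 without and 0.0196 with the block, under which 0.423% of all genes rose.

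Tnf was below vehicle in 4 of 4 pools for each chemical at day 1. It averaged 6.41 with Rosi, 6.29 with LG268, 6.29 with TBT, 6.45 with TPhP and 6.46 with MEHP, and 6.94 with vehicle. The differences ran from -0.65 to -0.48, and the arrays of TPhP overlapped those of vehicle. Nlrp3 was likewise lower in mean, with differences of -0.55 to -0.25. All 5 comparisons share the same 4 vehicle arrays, so they are not independent of each other. Tnip3 was higher in Rosi cultures at day 1, at 7.20, 6.10, 6.23 and 5.93, than in vehicle cultures, but the difference of 0.81 ± 0.41 did not pass (adjusted p = 0.284).

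At day 4 some members passed the test against vehicle with Rosi, LG268 or TBT. With Rosi 4 of 8 tested members fell and 0 rose, where 27.7% of all genes fell and 21.3% rose. All 10 members had a lower mean than in vehicle cultures, with a median difference of -0.51 over the 8 and -0.05 over all genes tested. Not every member was lower in every pool. Tnfaip3 was lower only in pool 12 (6.68 with Rosi and 7.09 with vehicle). Il1b, near background, differed by -0.02 and was higher with Rosi in pools 15 and 20. The members that fell past the test were Il1rn, Tnf, Nlrp3 and Nfkbia.

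Il1rn showed the largest of the 8 tested differences between Rosi and vehicle at day 4. It read 9.12, 9.11, 8.16 and 8.11 in Rosi cultures at day 4 and 9.97, 10.54, 10.32 and 10.24 in vehicle cultures. Every Rosi array lay well below the lowest vehicle array, and pools 19 and 20 were lower than pools 12 and 15. The difference was -1.64 ± 0.17 (3.11-fold lower, 95% interval -1.98 to -1.30, adjusted p = 7.23e-11), and the call held in all 10 alternatives. The SD of Il1rn was 0.567 with Rosi and 0.235 with vehicle, while SE, interval and p draw on the spread of all 13 groups. In a fit of only the arrays compared the adjusted p was much weaker, at 0.0018.

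Tnf read 5.41, 5.99, 5.21 and 5.57 in Rosi cultures at day 4 and 6.71, 6.84, 6.12 and 6.30 in vehicle cultures. The groups did not overlap, and pool 15 was the highest of both. The difference was -0.95 ± 0.26 (1.93-fold lower, adjusted p = 0.00219), and this call too held in all 10 alternatives.

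Nlrp3 read 5.75, 5.91, 5.24 and 5.31 in Rosi cultures at day 4 against 5.97, 6.13, 6.14 and 6.23 in vehicle cultures. The highest Rosi array, of pool 15, lay just under the lowest vehicle array. Nlrp3 fell by 0.56 ± 0.17 on the log2 scale (adjusted p = 0.00651), a call lost without pool 19 or pool 20 (highest adjusted p = 0.110).

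Nfkbia read 9.01, 9.49, 8.76 and 8.74 in Rosi cultures at day 4 and 9.57, 9.68, 9.38 and 9.20 in vehicle cultures. Every pool was lower with Rosi, though the groups overlapped through the Rosi array of pool 15. The difference of -0.46 ± 0.17 (adjusted p = 0.0213) was lost in 5 of 10 alternatives, with pools 12, 19 or 20 left out, with loess normalization and in a fit of only the arrays compared (highest adjusted p = 0.128).

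Tnfaip3 did not pass the test with Rosi, at 6.55 ± 0.24 in Rosi cultures and 6.60 ± 0.44 in vehicle cultures (SD, n = 4 each).

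Other genes of the pathway were counted list by list in Rosi cultures at day 4. Of 11 signalling adaptors and kinases 4 fell and 1 rose (median -0.18), where 27.7% of all genes fell. The riser was Irak2 (0.46 ± 0.10), a kinase of interleukin-1 receptor signalling. Of 10 receptors 8 fell (median -0.81), among them Tnfrsf1b (-1.14 ± 0.16), a TNF receptor, Tlr2 (-1.05 ± 0.19), a receptor for bacterial lipoproteins, and Cd14 (-0.82 ± 0.17), a co-receptor for endotoxin. Of 8 other inflammasome genes 6 fell (median -0.92), led by Gsdmd (-1.49 ± 0.27), whose cleaved product forms membrane pores, with Il18 (-0.98 ± 0.23), a cytokine matured alongside interleukin-1β. Among 4 NF-κB subunits 3 fell, Rel (-0.73 ± 0.17), Nfkb2 (-0.58 ± 0.13) and Relb (-0.22 ± 0.09). Of the 11 other genes listed as inhibitors 5 fell. In front were Socs3 (-1.58 ± 0.22), a brake on interleukin-6 signalling, and Nfkbie (-1.29 ± 0.23), the IκBε gene. Of 14 other NF-κB-responsive genes 8 fell, such as Icam1 (-1.16 ± 0.26), an adhesion molecule, while Sod2 (1.06 ± 0.10), mitochondrial superoxide dismutase, rose.

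Marker genes of several cell types moved in the same arrays. All 14 macrophage markers fell, with a median difference of -1.11, and their summed log2 level was 13.21 to 14.42 in Rosi cultures and 14.56 to 14.85 in vehicle cultures. None of the 14 was near background. Of 10 stromal markers 8 fell (median -1.10). The Rosi array of pool 15 stood apart, with a mean of 10.05 over the macrophage markers against 8.82 to 9.13 in the other 3 Rosi arrays, and it was also the highest Rosi array of Tnf, Nlrp3, Nfkbia, Tnfaip3 and Tnip3. Without pool 15 the same 4 members passed the test, Il1rn at -1.71, Tnf at -0.98, Nlrp3 at -0.68 and Nfkbia at -0.55. Of 7 osteoblast markers 5 fell, with summed log2 levels of 9.79 to 11.39 in Rosi cultures and 12.19 to 13.20 in vehicle cultures. Of 7 osteoclast markers 4 fell, at 9.50 to 10.85 in Rosi cultures and 11.07 to 11.70 in vehicle cultures. All 7 adipocyte markers rose, at 14.21 to 14.39 in Rosi cultures and 11.91 to 12.50 in vehicle cultures. The part of these shifts in the falls of the members was not tested.

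**Figure D2:**
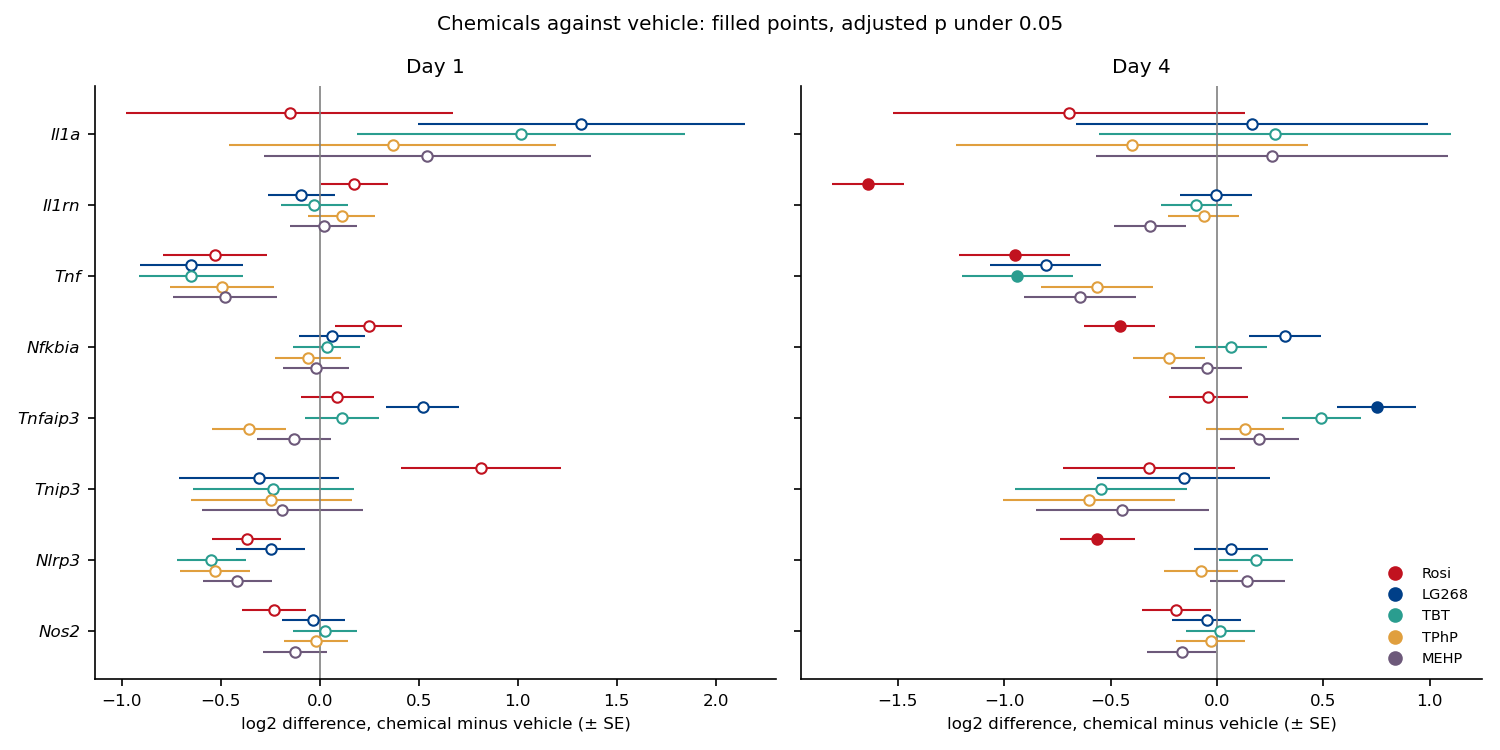
Log2 differences from vehicle (± SE, n = 4 arrays per group) of the 8 tested members for 5 chemicals at day 1 and day 4. Filled points passed limma's test at an adjusted p under 0.05: none at day 1, and at day 4 Il1rn, Tnf, Nfkbia and Nlrp3 with Rosi, Tnfaip3 with LG268 and Tnf with TBT.

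With LG268 Tnfaip3 rose at day 4, the 1 tested member to do so, and 0 fell, where 4.21% of all genes rose and 2.26% fell. Tnfaip3 read 7.54, 7.05, 7.32 and 7.47 in LG268 cultures and 7.09, 6.82, 6.31 and 6.16 in vehicle cultures. It was higher in 4 of 4 pools, the groups overlapped through pool 12 of vehicle, and the gap was widest in pools 19 and 20. The rise was 0.75 ± 0.18 (1.68-fold, adjusted p = 0.00798, and 1.99e-05 with the pool as block). The call was lost without pool 19 or pool 20 and in a fit of only the arrays compared (highest adjusted p = 0.214).

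Nfkbia had its highest mean of all 13 groups in LG268 cultures at day 4 (9.78 ± 0.05, against 9.46 ± 0.21 with vehicle, SD, n = 4 each), but the difference of 0.32 ± 0.17 did not pass (adjusted p = 0.276). Tnf read 6.31, 5.50, 5.43 and 5.51 in LG268 cultures and 6.71, 6.84, 6.12 and 6.30 in vehicle cultures. Pool 12 stood above the other 3 LG268 arrays and reached into the vehicle range. The difference of -0.80 ± 0.26 had adjusted p = 0.0542, and 0.0334 with the pool as block, under which 4.43% of all genes fell.

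Other genes of the pathway moved in both directions with LG268. The subunits Nfkb2 (0.59 ± 0.13) and Relb (0.30 ± 0.09) rose, 2 of 4 tested. Among 10 receptors, 11 other genes listed as inhibitors and 8 other inflammasome genes, 0 rose and 0 fell. Of 11 signalling adaptors and kinases 1 rose, Irak2 (0.47 ± 0.10), and 1 fell, Ikbkg (-0.36 ± 0.07), which encodes a regulatory subunit of the kinase complex that marks IκB for destruction. Among the 14 NF-κB-responsive genes 1 rose, the adhesion molecule Vcam1 (1.02 ± 0.19), and 3 fell, Ier3 (-1.71 ± 0.40), Ptgs2 (-1.54 ± 0.44) and Lcn2 (-1.16 ± 0.36). Of 12 neutrophil markers 8 fell (median -1.72), among them S100a8 (-1.96 ± 0.55). Their summed log2 level was 9.41 to 10.77 in LG268 cultures and 11.13 to 12.66 in vehicle cultures. Of the 14 macrophage markers 2 rose and 0 fell. Of 7 adipocyte markers 4 rose, and of 7 osteoclast markers 3 fell. The mean over the adipocyte list was 9.39 to 10.01 in LG268 cultures and 7.76 to 9.19 in vehicle cultures, and that over the osteoclast list 6.49 to 6.82 in LG268 cultures and 6.96 to 7.97 in vehicle cultures. The part of these shifts in the values of Tnf and Tnfaip3 was not tested.

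With TBT Tnf fell at day 4, 1 of 8 tested members, and 0 rose, where 9.42% of all genes fell and 10.6% rose. Tnf read 6.41, 5.44, 5.26 and 5.12 in TBT cultures, against the vehicle values above. Pool 12 lay within the vehicle range and the other 3 pools below it. The difference was -0.94 ± 0.26 (1.91-fold lower, adjusted p = 0.00839), lost without pool 20 and in a fit of only the arrays compared (adjusted p up to 0.110). Tnfaip3 was higher in 4 of 4 pools by 0.49 ± 0.18, with adjusted p = 0.0543, and 0.00168 with the pool as block, under which 12.4% of all genes rose.

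The pathway genes of TBT cultures included some of the same names as with LG268, with the same vehicle arrays on the other side. Of 11 adaptors and kinases 1 rose and 2 fell, and of 14 NF-κB-responsive genes 2 rose and 2 fell. Of 8 inflammasome genes 1 rose, and of 11 genes listed as inhibitors and of 10 receptors 1 each fell. Unlike with LG268, 0 of 4 NF-κB subunits rose past the test, and 0 fell. Irak2 rose by 0.66 ± 0.10 and Vcam1 by 0.98 ± 0.19, while Traf1 (-0.68 ± 0.24), Ikbkg (-0.35 ± 0.07), Ier3 (-1.61 ± 0.40), Ptgs2 (-1.46 ± 0.44), Socs3 (-1.14 ± 0.22) and Il1r1 (-0.95 ± 0.25) fell. Of 12 neutrophil markers 5 fell, at summed log2 levels of 10.07 to 11.31 in TBT cultures and 11.13 to 12.66 in vehicle cultures. The macrophage markers split, with 2 higher and 1 lower past the test. All 7 adipocyte markers rose, with summed log2 levels of 13.65 to 14.06 in TBT cultures and 11.91 to 12.50 in vehicle cultures. Of 7 osteoclast markers 5 fell, at 9.99 to 10.50 in TBT cultures and 11.07 to 11.70 in vehicle cultures. The part of these shifts in the fall of Tnf was not tested.

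TPhP and MEHP moved no member past limma's test at day 4, where 18.9% and 23.8% of all genes passed. At an unadjusted p under 0.05 each had 1 member lower, Tnf, which was below vehicle in 4 of 4 pools with both. Tnf read 6.07, 6.65, 5.20 and 5.80 in TPhP cultures and 6.11, 6.71, 5.13 and 5.44 in MEHP cultures. In both groups pool 15 lay within the vehicle range, and the other 3 pools lay below its lowest array. The difference was -0.56 ± 0.26 for TPhP (95% interval -1.09 to -0.04, adjusted p = 0.134) and -0.64 ± 0.26 for MEHP (interval -1.17 to -0.12, adjusted p = 0.0684). Without pool 15 the MEHP difference was -0.82 and passed (adjusted p = 0.023). The TPhP array of pool 12 stood apart at day 4, with a neutrophil marker mean of 4.84 against 7.10 to 8.50 in the other 3, and Nfkbia there was 8.73 against 9.20 to 9.76.

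**Figure D3:**
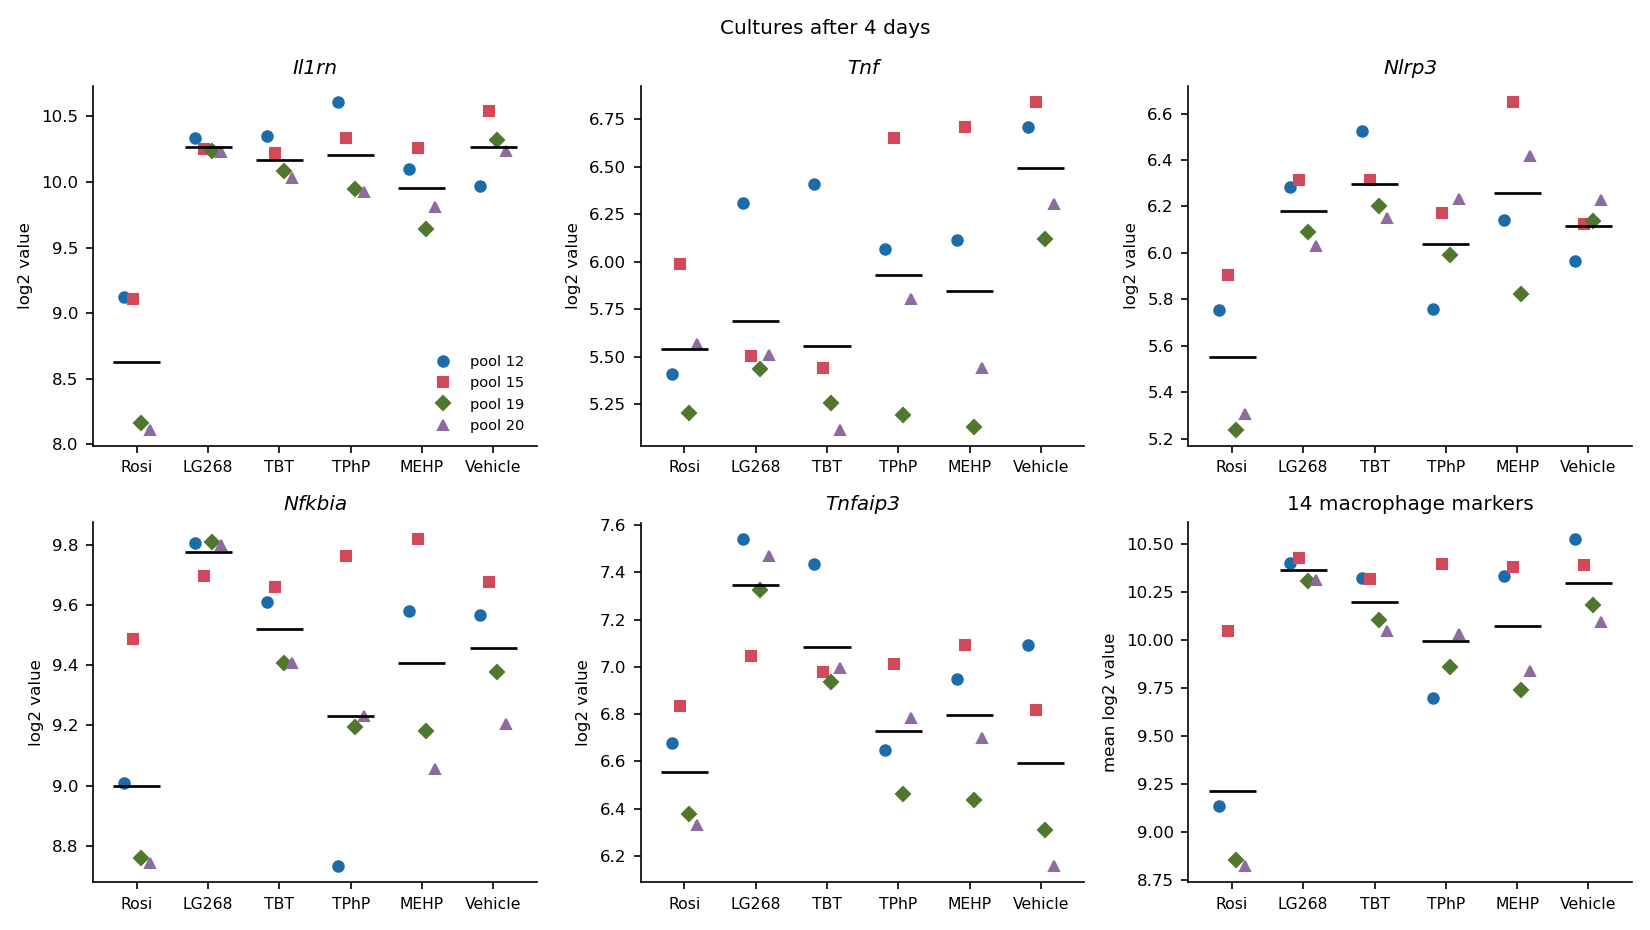
Log2 values of 5 members, and the mean of 14 macrophage markers, in cultures after 4 days with each chemical and, at the right, vehicle. Points are arrays by pool and lines are means of 4. The Rosi arrays of Il1rn (8.11 to 9.12) lie below all others, Tnfaip3 has its highest mean with LG268 (7.35), and the macrophage markers are lowest in 3 of the 4 Rosi arrays (8.82 to 9.13).

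The Rosi response of Il1rn developed between the days. Il1rn read 9.12, 9.11, 8.16 and 8.11 in Rosi cultures at day 4 and 10.47, 10.47, 10.32 and 10.36 at day 1, with no overlap. The change was -1.78 ± 0.17 (adjusted p = 1.32e-11, and 0.000415 in a fit of only the arrays compared). Set against the change in vehicle cultures, the interaction was -1.81 ± 0.24 (adjusted p = 2.57e-07, and 0.000574 in such a fit), in 4 of 4 pools. Nfkbia had an interaction with Rosi of -0.70 ± 0.24 (adjusted p = 0.0207, lost without pool 12, 19 or 20, highest 0.108), being 0.25 above vehicle at day 1 and 0.46 below it at day 4. These were 2 of 8 members, both downward, where 15.6% of all genes passed downward and 14.4% upward. Of the 14 macrophage markers 9 passed downward in the same interaction. For LG268, TBT, TPhP and MEHP 0 of 8 members passed limma's interaction test, where 0.0805%, 1.77%, 4.49% and 6.36% of all genes did. At an unadjusted p under 0.05 Nlrp3 was higher with TBT (0.73 ± 0.25) and with MEHP (0.56 ± 0.25), of which the TBT value passed in a fit of only the arrays compared (adjusted p = 0.0245), and the block added no call.

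Within the chemicals, day 4 against day 1 gave few further calls. With Rosi 3 of 8 members fell (26.5% of all genes did), Tnf by 0.87 ± 0.26 and Nlrp3 by 0.62 ± 0.17 on the log2 scale beside Il1rn. Nfkbia rose with LG268 by 0.63 ± 0.17 (adjusted p = 0.00592, 8.6% of all genes rose) without overlap between the days. Tnf fell with TBT by 0.73 ± 0.26 on the log2 scale (adjusted p = 0.03, in 3 of 4 pools, 15.3% of all genes fell). Tnfaip3 rose with TPhP by 0.50 ± 0.18 (adjusted p = 0.0359), in 4 of 4 pools, where 15% of all genes rose. Leaving out pool 19 or pool 20 ended the calls of Nfkbia, of Tnf with TBT and of Tnfaip3 (adjusted p up to 0.374), pool 15 that of Tnfaip3 too, and pool 19 that of Nlrp3 with Rosi (0.0558). A fit of only the arrays compared also ended the calls of Tnf with TBT and Tnfaip3 with TPhP, and a fit without the filter that of Tnfaip3 (adjusted p = 0.0509). Tnf with LG268, not called in the main fit, passed in the fit of only the arrays compared (adjusted p = 0.0378). Leaving out pool 15 added Tnf with TPhP (-0.84) and MEHP (-1.01), Nfkbia with Rosi (-0.40) and TBT (0.40) and Tnip3 with Rosi (-1.04), and leaving out pool 12 added Tnf with LG268 (-0.81) and Nos2 with TPhP (0.43). With MEHP 0 of 8 passed limma's test and 2 did with the block, where 33.7% of all genes passed without it. At an unadjusted p under 0.05, 1 member passed, with no share of all genes given at that threshold. The block raised the total over the 5 chemicals to 11 calls from 6. The added calls were Nfkbia with Rosi (-0.34), TBT (0.39) and MEHP (0.34), and Tnfaip3 with TBT (0.39) and MEHP (0.34). Under the block 28.7% of all genes fell with Rosi, and 16.2% rose with TBT and 17.6% with MEHP.

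Set against Rosi at day 4, Il1rn and Nlrp3 were higher with each of the other 4 chemicals. With LG268 4 of 8 members were higher, Il1rn by 1.64 ± 0.17, Tnfaip3 by 0.79 ± 0.18, Nfkbia by 0.78 ± 0.17 and Nlrp3 by 0.63 ± 0.17, where 26.3% of all genes were. With TBT the same 4 were higher, Il1rn by 1.54 ± 0.17 and Nlrp3 by 0.75 ± 0.17 (20.1% of all genes). TPhP and MEHP each had 2, Il1rn (1.58 ± 0.17 with TPhP and 1.32 ± 0.17 with MEHP) and Nlrp3 (0.49 ± 0.17 with TPhP and 0.71 ± 0.17 with MEHP), where 15.1% and 12.8% of all genes were higher. Calls ended without pool 12, 19 or 20 for Nfkbia and Tnfaip3 with TBT, without pool 19 or 20 for Nlrp3 with TPhP, and without pool 20 for Nlrp3 with MEHP (adjusted p up to 0.324). Both of these Nlrp3 calls also ended in a fit of only the arrays compared (adjusted p up to 0.127). Nfkbia with MEHP, 0.41 higher, passed with the block and without pool 15. Tnf passed in none of these 4 comparisons. The 4 comparisons share the Rosi arrays, and the doses of TPhP and MEHP are unknown. Macrophage markers were higher in 13 or 14 of 14 in each of them. At day 1 no member passed limma's test against Rosi with LG268, TBT, TPhP or MEHP, where 6.99%, 2.61%, 2.32% and 1.88% of all genes did. At an unadjusted p under 0.05 these counts were 2, 1, 2 and 1, with no share of all genes given at that threshold. With the block Tnfaip3 passed with LG268 (0.43) and TPhP (-0.45). In a fit of only the arrays compared Tnip3 passed with LG268 (-1.12).

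Il1a, the interleukin-1 form that signals from the cell surface and from dying cells, differed more between pools than between groups. It read 7.38, 5.48, 3.08 and 3.40 in vehicle cultures at day 4, 7.87, 4.88, 3.58 and 4.06 in MEHP cultures and 7.14, 4.38, 4.48 and 4.43 in TBT cultures. Pool 12 was the highest array in each of these. It lay above its group's mean in 11 of 13 groups, by 1.35 on average, and pools 19 and 20 in 0 of 13. No comparison of Il1a passed the test, with an SE of 0.83 on each difference between groups, although in a fit of only the arrays compared vehicle at day 1 against naive cells reached adjusted p = 0.0474.

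Il6, a cytokine of acute inflammation and bone resorption, was near background. It lay above 4.05 in 1 of 52 arrays. It read 3.64, 3.90, 1.63 and 1.62 in vehicle cultures at day 4 and 4.47, 3.69, 2.21 and 2.03 in MEHP cultures, so that pools 12 and 15 were high and pools 19 and 20 low in both. With Rosi and TPhP at day 4 pool 15 was the highest array (3.52 and 3.86), and with LG268 and TBT all 8 arrays stayed between 1.61 and 2.28. In day 1 and naive arrays Il6 never passed 2.38. In the fit without the filter, 1 of 31 comparisons of Il6 passed, MEHP at day 4 against day 1 (1.15, adjusted p = 0.0385), a size that is uncertain so near background.

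The same pools carried other signals. In vehicle cultures at day 4 the mean over 12 neutrophil markers was 8.61, 8.32, 6.86 and 7.03 in pools 12, 15, 19 and 20, and that over 14 other NF-κB-responsive genes was 7.88, 7.83, 6.84 and 6.82. The 6 tested T and NK cell markers averaged 6.96, 5.64, 4.52 and 4.45. Their part in the pool pattern of Il1a and Il6 was not tested. Tnfaip3 lay above its group mean in 12 of 13 groups in pool 12 and in 0 in pool 19.

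**Figure D4:**
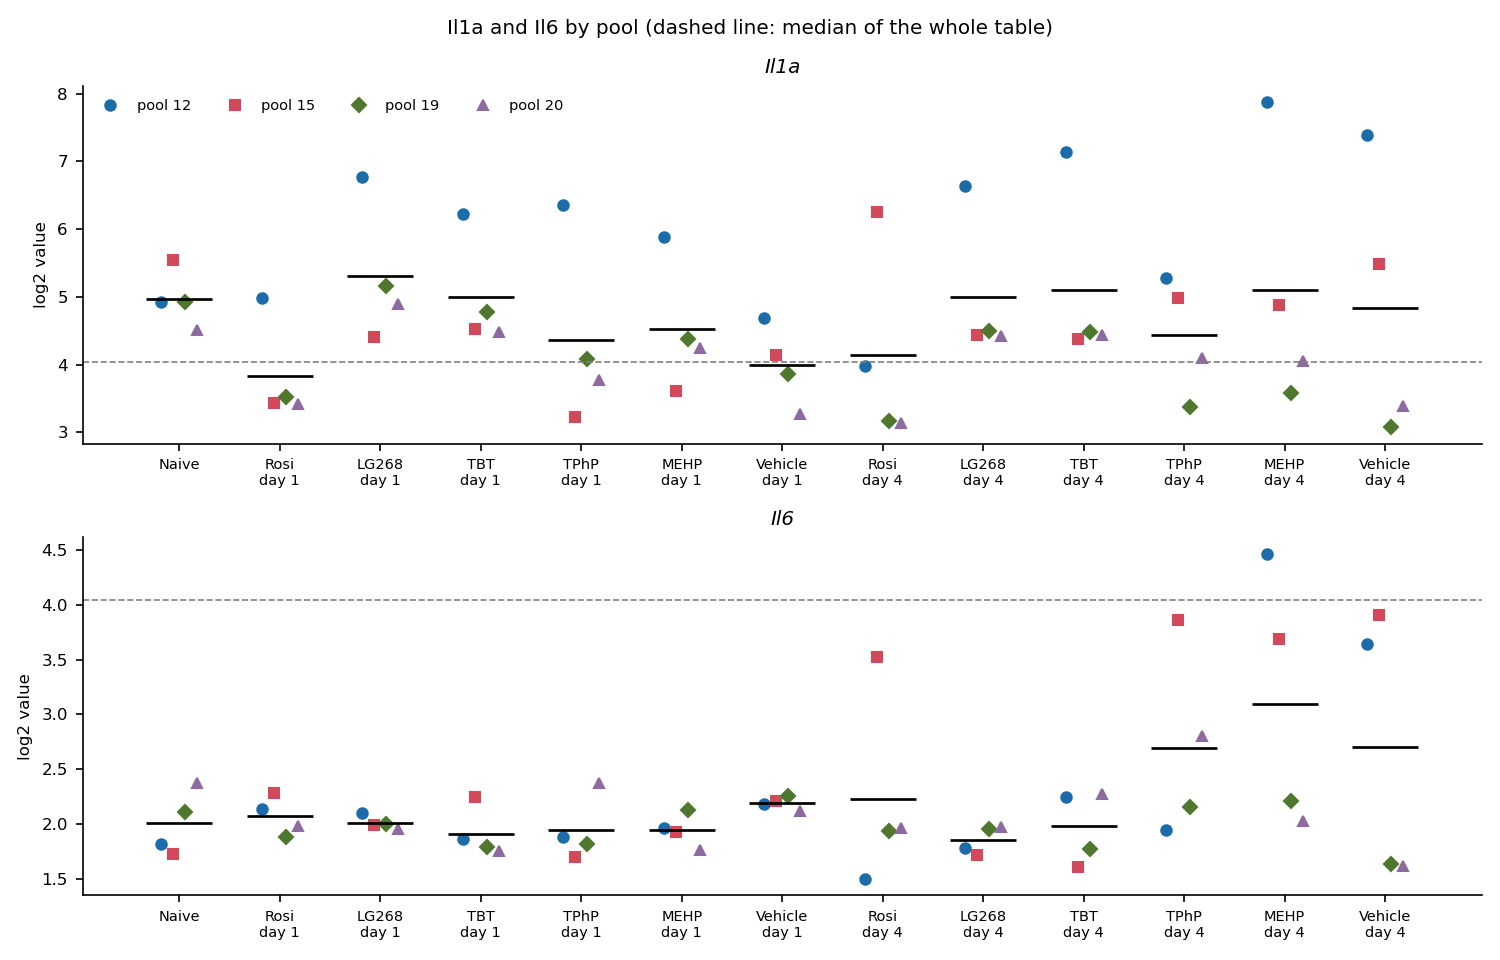
Log2 values of Il1a and Il6 in all 13 groups, with arrays marked by pool, group means as black lines and the median of the whole table (4.05) dashed. Il1a of pool 12 stands highest in most groups, up to 7.87 with MEHP at day 4, and Il6 rises above 3.5 only in pools 12 and 15 at day 4.

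Nos2, which makes nitric oxide in activated macrophages, had group means between 4.38 and 4.83, little above the table's median, in all 13 groups. It passed no comparison, with an SE of 0.16 on each difference, although without pool 12 TPhP at day 4 differed from TPhP at day 1 and from Rosi at day 4 (highest adjusted p = 0.0329). No neighbouring groups in its order of means lay further apart than the larger of their SDs. The same held for Il1a and Il6, while Il1b, Il1rn, Nfkbia and Tnip3 each had 1 such step among 12. For Il1b and Tnip3 that step set the naive group above all others, for Il1rn it set Rosi at day 4 below all others, and for Nfkbia it set LG268 at day 4 above all others. Tnf had 2 steps, naive cells and then vehicle at day 1 above the rest. Tnfaip3 also had 2, with LG268 at day 4 highest, and so had Nlrp3, with Rosi at day 4 lowest.

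The members did not form a single pattern over the 13 group means. Nfkbia and Tnfaip3 ran together (Pearson r = 0.67 over group means and 0.63 over 52 arrays with group means removed), as did Tnf and Tnip3 (0.57 and 0.73). Tnf and Nfkbia ran opposite over group means (-0.52) and together within groups (0.42). These points share arrays, pools and medium, and they are given as a description. Genes with the most similar group means were Coro1a (r = 0.96) and Gpr183 (0.96) for Tnf, Zbtb2 (0.95) and Cyp39a1 (0.95) for Il1rn, Tmem176b (0.97) and Tmem176a (0.96) for Nfkbia, Pilrb1 (0.88) for Tnfaip3 after the immunoglobulin segment Igkv6-14 (0.89), Apobr (0.88) for Tnip3, Clec4a3 (0.92) for Nlrp3, Ctsd (0.90) for Il1a and Tcea2 (0.87) for Nos2.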

How the data were processed

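RNA of 52 cultures was hybridised to 1-colour arrays. The authors deposited log2 values of 41345 probe sets. R 3.3.1 and the package oligo are named in the submitters' processing notes, while background correction and normalization were not given in the sources used here. Of the probe sets, 23521 named 1 gene, 1814 several and 16010 none, by GEO's platform annotation, and only the first kind was used. The probe set with the highest mean stood for a gene. A gene was tested where at least 4 of 52 arrays exceeded the table's median, 4.05, which left out 7269 genes.

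Groups were compared in 1 limma fit of group means over all 52 arrays (R 4.3.3, limma 3.58.1, two-sided, residual degrees of freedom 39), adjusted by Benjamini-Hochberg across 14911 genes in each of 31 comparisons and a threshold of 0.05. The pool was a replicate block in an alternative fit with 36 residual degrees of freedom. The labels state that each pool of animals was 1 experiment, and once group means were removed 43 of 52 arrays had their highest mean correlation with the other arrays of their pool (median 0.219 within and -0.101 between pools). The blocked value stands beside a result where it changes the call. Other alternatives were only the arrays compared, no filter, a filter at the 75th percentile (6.34), averaged probe sets, cyclic loess and each pool left out. Averaging could not alter the values of any member, since each had 1 probe set.

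Members, pathway lists and marker lists were chosen with earlier results of these data known. The genes named from a list were up to 4 with the smallest adjusted p, and the similar genes named were among the 3 most correlated with a member. Promoters came from RefSeq tables (GRCm38.p6). The table used held no window for Nos2. Figures were drawn with matplotlib (3.10.9). The fit was tested on simulated data drawn without pool effects, so that test says nothing of the correlation within pools.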

Additional observations from a re-analysis of the deposited data

Results flagged for a closer look

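Of 130 sets of 4 arrays (10 members in 13 groups), 14 held an array whose gap to its nearest neighbour exceeded Dixon's 95% critical value for the share of the group's range. Chance flags about 1 in 20 groups. Of the 14 arrays, 11 were of pool 12. Il1a of pool 12 stood above the rest with Rosi at day 1 (4.98, the others up to 3.52), TBT at day 1 (6.23, up to 4.78), LG268 at day 4 (6.64, up to 4.50) and TBT at day 4 (7.14, up to 4.48). In LG268 cultures at day 4, pool 12 was also apart for Il1rn (10.34) and Tnf (6.31), while for Nfkbia pool 15 was the low one (9.70, the others 9.80 to 9.81). In TBT cultures at day 4 pool 12 was high for Tnfaip3 (7.43) and Tnip3 (6.21). Nlrp3 of pool 12 was high with LG268 at day 1 (6.66) and low with TPhP at day 1 (5.14, the others from 6.21). Nos2 of pool 12 was high with vehicle at day 4 (5.39). Tnip3 of pool 15 was low with MEHP at day 1 (4.50) and high with Rosi at day 4 (6.82, the others up to 5.54).

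The Rosi difference from vehicle changed between the days for 2 of 40 member interactions tested, Il1rn (-1.81, day 4 minus day 1) and Nfkbia (-0.70), each in 4 of 4 pools.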

How the results depend on the processing

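No member's difference reversed past the test in any alternative, and of 32 member differences that passed, 15 passed in all 10 alternatives. Averaging probe sets was 1 of the 10 and could not alter a member's values. With the pool as replicate block, calls came to 2 instead of 1 for vehicle at day 1 against naive cells, 1 instead of 0 between vehicle days, 1 instead of 0 for chemicals at day 1, and 11 instead of 6 for day 4 against day 1 within chemicals. The block ended no call and added 13. For the fits that follow, no share of all genes is given. Whether their member counts moved with those of all genes therefore cannot be read here. In fits of only the arrays compared, the counts were 3 for vehicle at day 1 and 3 instead of 5 at day 4 against naive cells, 3 for chemicals at day 1 and 3 instead of 6 at day 4, and the smaller number of samples goes with a less stable spread. Without the filter, and with the stricter filter, vehicle at day 1 against naive cells gave 2 calls each. Leaving out 1 pool at a time gave 1 to 2 calls for vehicle at day 1, 1 to 5 at day 4 against naive cells, 2 to 7 for chemicals at day 4, 2 to 10 for day 4 against day 1 and 1 to 2 for the interactions. Omitting pool 19 ended 15 calls and omitting pool 20 ended 16, against 4 each for pools 12 and 15. The cause was not tested. Il6 and Il1b lie too near background for their sizes to be read.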
